A study of Mus musculus with 13 samples.

Results

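The EGF receptor (EGFR) family was examined in mouse NUT carcinoma (mNC) through 10 genes, out of 55332 genes with values. The 10 were chosen by name, with earlier results of these data known. They are 3 receptors (Egfr, Erbb2, Erbb3), 6 ligands (Areg, Ereg, Tgfa, Hbegf, Epgn, Btc) and Errfi1, an inhibitor of the activated receptor. Bulk RNA sequencing covered 13 tumors, of which 4 were oral Sox2 wild type (WT), 2 oral Sox2 knockout (KO), 4 pancreatic WT and 3 pancreatic KO. All carried the NCT allele (NCT+/-), through which Cre recombinase starts these tumors, so the WT controls carry it too, and no normal tissue was among the samples. The study asked what loss of Sox2, a transcription factor of epithelial stem cells, does to tumors from these sites. Oral WT tumors were KRT14-Cre; NCT+/- and pancreatic WT tumors Pdx1-Cre; NCT+/-. The KO tumors additionally carried floxed Sox2 (Sox2fl/fl in oral tumors, written Sox2fl; fl for pancreatic tumors), and the labels of the oral KO tumors name the driver KRT4Cre. KRT14-Cre acts in basal cells of oral mucosa, skin and salivary gland, and Pdx1-Cre in the pancreatic lineage, so tissue and Cre driver change together. The labels give no ages and do not tie tumors to animals, and the p-values below therefore measure the spread between these tumors.

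EGFR, ERBB2 and ERBB3 are receptor tyrosine kinases that signal as pairs. EGFR binds all 6 ligands, ERBB2 binds none and acts as the preferred partner, and ERBB3 binds neuregulins and signals almost wholly through its partner kinase. The ligands are made as membrane-bound precursors that metalloproteases release. In stratified epithelium the system drives growth and migration of basal cells, and the ligands and Errfi1 are themselves induced when the receptor is active, forming loops in both directions.

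The genes lie on 6 chromosomes of GRCm38 in the GENCODE M21 annotation. Epgn (chr5:91027464-91035215, + strand), Ereg (chr5:91074622-91093646, +), Areg (chr5:91139599-91148432, +) and Btc (chr5:91357261-91402994, - strand) are neighbours within 376 kb. Tgfa is at chr6:86195223-86275719 (+). Egfr (chr11:16752203-16918158, +) and Erbb2 (chr11:98412470-98437716, +) share a chromosome, whereas Erbb3 is at chr10:128567523-128589652 (-) and Errfi1 at chr4:150853919-150868892 (+). Counts could be assigned to each gene with little ambiguity, since at most 0.852% of the 31-base stretches of a member (Egfr) also occur in another gene. Erbb3 overlaps the microRNA gene Mir6917 on its own strand.

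Promoter sequences from RefSeq (GRCm38.p6) were at hand for 7 members, with 8 promoters because Errfi1 has 2. The 250 bases before the start are shown for the pair of chromosome 5 ligands whose levels differed between tissues and have a promoter in the table, and for their receptor. Capitals mark matches on either strand to ACAANG, the core shared by SOX factors, or to TGACGTCA, the cyclic AMP response element. No match of one motif shares a base with a match of the other in these 3 windows.
Areg (chr5:91139349-91139598, + strand): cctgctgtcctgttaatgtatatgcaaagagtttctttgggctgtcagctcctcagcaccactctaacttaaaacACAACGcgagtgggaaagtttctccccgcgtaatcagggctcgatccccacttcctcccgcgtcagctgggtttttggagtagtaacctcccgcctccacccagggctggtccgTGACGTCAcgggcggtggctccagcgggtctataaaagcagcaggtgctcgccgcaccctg
Btc (chr5:91402995-91403244, - strand): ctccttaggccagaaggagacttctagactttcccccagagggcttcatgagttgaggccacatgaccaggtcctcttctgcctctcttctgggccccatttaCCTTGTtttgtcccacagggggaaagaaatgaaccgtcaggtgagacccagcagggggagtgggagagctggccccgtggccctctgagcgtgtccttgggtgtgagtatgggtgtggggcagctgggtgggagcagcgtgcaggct
Egfr (chr11:16751953-16752202, + strand): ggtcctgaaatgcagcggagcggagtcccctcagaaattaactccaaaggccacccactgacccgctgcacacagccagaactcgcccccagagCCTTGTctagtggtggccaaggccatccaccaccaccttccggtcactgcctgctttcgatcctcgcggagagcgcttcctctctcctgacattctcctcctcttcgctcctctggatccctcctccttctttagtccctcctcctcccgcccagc
In Areg the response element lies with its leftmost printed base 61 bases before the start and the SOX core 175 bases before it, in Btc a SOX core lies at 147 bases and in Egfr at 156. A SOX core was present in 5 of 8 member promoters and in 36.3% of all 32851 mouse promoters in the table. The cyclic AMP response element was present in 2 of 8 (Areg and the second Errfi1 promoter) and in 1.55% of all promoters, and the AP-1 motif TGACTCA in 0 of 8 and 4.46% of all. These are matches of letters and not measured binding sites.

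Sox2 was at 410 to 1487 estimated counts in the 8 WT tumors and at 0 to 2 counts in the 5 KO tumors. Totals were 29394258 to 40420228 estimated counts in oral WT, 11735315 and 20432164 in oral KO, 40964533 to 46134830 in pancreatic WT and 89562790 to 120482829 in pancreatic KO tumors, so that depth separated KO from WT in opposite directions in the 2 tissues. Oral KO tumor 1 stood apart, with 59.5% of counts in protein-coding genes against 84.5 to 91.7% in the other 12 tumors, and 16.6% in the cytoplasmic RNAs Rn7s1 and Rn7s2. Basal keratinocyte markers (Krt5, Krt14, Trp63 and 3 others) summed to 3597 or more CPM (TMM-scaled counts per 1000000) in every tumor. The tumors also differed in other cells. Fibroblast markers summed to 8667 to 19009 CPM in the 6 oral tumors and 1118 to 3622 CPM in the 7 pancreatic tumors. Skeletal muscle markers summed to 2781 and 5087 CPM in the oral KO tumors, 480 CPM in oral WT tumor 4 and at most 7.31 CPM in the other 10 tumors. Pancreatic acinar markers reached 221 CPM in pancreatic KO tumor 3 and at most 11.7 CPM elsewhere. Of the 6 acinar markers, 1 (Ptf1a) was at 3 counts or fewer in every pancreatic WT tumor and 0 were in the pancreatic KO tumors.

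All 10 members were detected in every tumor, and all passed the filter of 10 counts in at least 2 tumors in each comparison. Compared per length, as CPM per kilobase of exon, the receptors and Errfi1 were the more abundant and most ligands the scarcer transcripts. In oral WT tumors the order by mean was Erbb2 (23.5 ± 5.23 CPM per kb, SD, n = 4), Errfi1 (22.3 ± 3.39), Erbb3 (14.7 ± 6.96) and Egfr (11 ± 2.01), followed by Hbegf (4.16 ± 2.97), Tgfa (3.25 ± 2.32), Areg (2.09 ± 1.4), Epgn (1.51 ± 1.27), Btc (1.21 ± 0.748) and Ereg (0.913 ± 1.03). Among neighbours in that order, the ranges were separate between Egfr and Hbegf and overlapped in all other pairs. Pancreatic WT tumors had another order, with Erbb3 (40.4 ± 9.46 CPM per kb, n = 4) first and Hbegf (35 ± 16.5) second, ahead of Errfi1 (30.5 ± 7), Erbb2 (28.9 ± 3.32) and Egfr (20.4 ± 1.6). Hbegf came first (58.5 CPM per kb) when the longest transcript was taken as the length in place of all exons. The ranges separated Erbb2 from Egfr and Egfr from Tgfa (13.5 ± 4.38), and overlapped between the other neighbours. The 2 KO groups kept Egfr above Tgfa and above the remaining low ligands, with Btc lowest by mean in both (1.16 ± 0.626, n = 2, in oral and 2.25 ± 1.11, n = 3, in pancreatic tumors). The range of Btc overlapped that of Ereg in both, and the mean of Ereg in pancreatic KO tumors was 2.31.

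**Figure D1:**
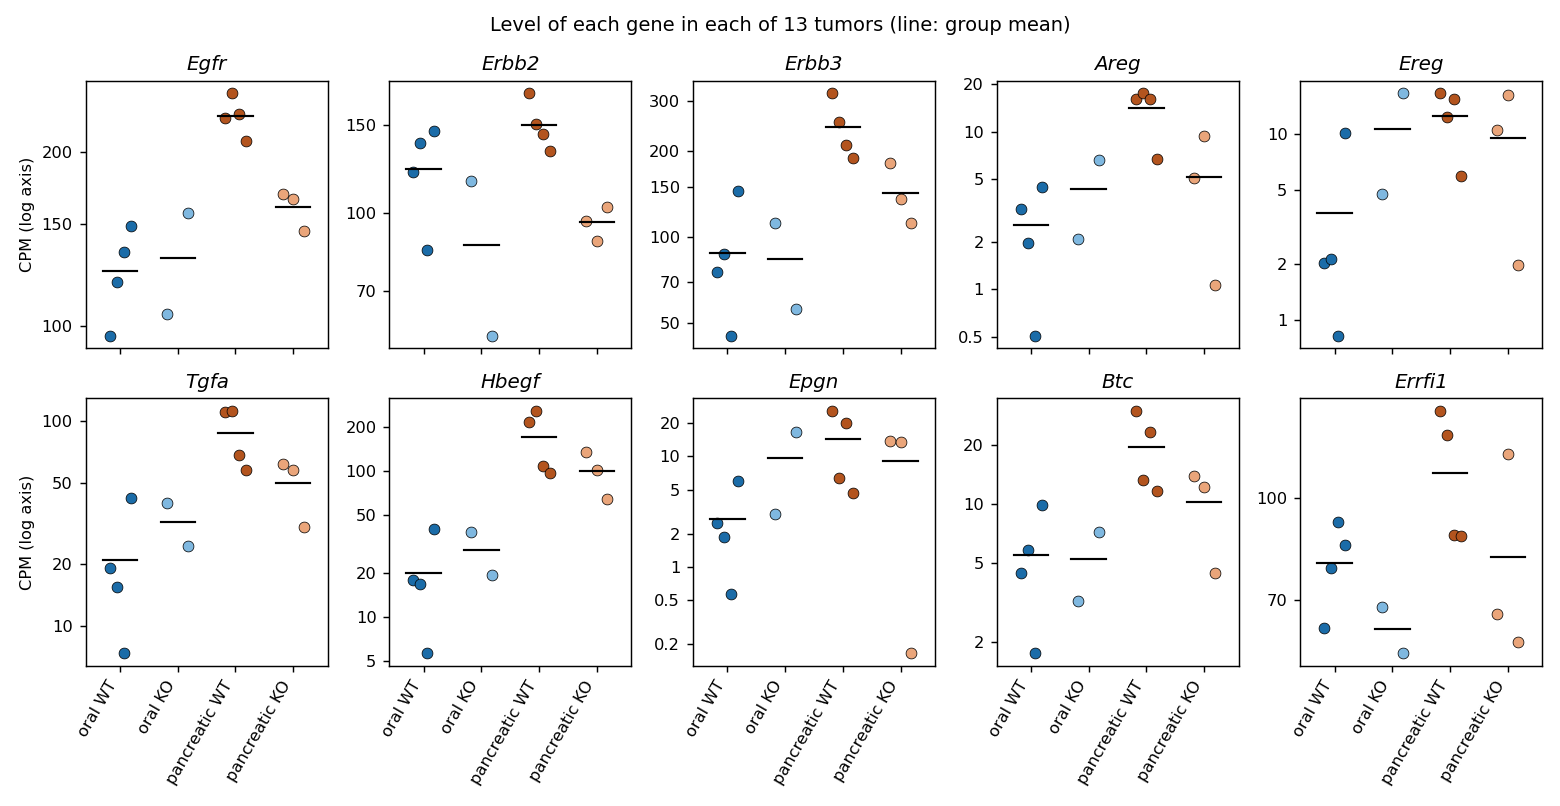
Level of each of the 10 genes in CPM (log axis) in each tumor, by group. Points are tumors and lines group means. All 4 oral WT tumors lie below all 4 pancreatic WT tumors for Egfr, Erbb3, Areg, Tgfa, Hbegf and Btc, and the 3 pancreatic KO tumors lie below the 4 pancreatic WT tumors for Egfr, Erbb2 and Erbb3.

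The clearest contrast in the family was between the tissues of origin, before any question of Sox2. In WT tumors, Hbegf, Areg, Tgfa, Btc and Erbb3 were lower in oral than in pancreatic mNCs, by 2.75-fold (Erbb3) to 8.38-fold (Hbegf). These 5 of 10 members passed an adjusted p under 0.05 and a change above 1 on the log2 scale in edgeR's quasi-likelihood test, against 7.24% of the 23164 genes tested that were called lower in oral tumors and 9.30% called higher. All 10 fold changes were negative, with a median of -1.78 on the log2 scale against 0.00 over all genes, and 6 members had every oral tumor below every pancreatic tumor, which 13.8% of all genes did. The members were chosen with earlier results of these data known. Their counts beside the shares of all genes are therefore a description.

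Hbegf encodes heparin-binding EGF, a ligand that is active on the cell surface as well as when shed, at chr18:36504927-36515805 (-). It stood at 18, 16.9, 5.67 and 39.9 CPM in oral WT tumors 1 to 4 and at 215, 258, 108 and 96.4 CPM in pancreatic WT tumors 1 to 4. The lowest pancreatic tumor was still above the highest oral tumor. The log2 fold change was -3.07 ± 0.59 (SE; edgeR adjusted p = 0.00743), and it was called under all 15 alternative analyses. Tgfa, the classical autocrine ligand of keratinocytes, was at 19.1, 15.5, 7.32 and 42.4 CPM in oral and 111, 113, 68.4 and 58.0 CPM in pancreatic WT tumors, a log2 fold change of -2.05 ± 0.50 (adjusted p = 0.0192). The groups did not overlap.

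Areg encodes amphiregulin, a low-affinity ligand of EGFR. It was scarce in oral WT tumors (3.24, 1.97, 0.507 and 4.46 CPM) and higher in pancreatic WT tumors (16.1, 17.5, 16.1 and 6.75 CPM), with a log2 fold change of -2.46 ± 0.59 (adjusted p = 0.0186) and no overlap. Its neighbour Btc, encoding betacellulin, was at 4.48, 5.87, 1.74 and 9.86 CPM in oral and 29.8, 13.3, 23.3 and 11.6 CPM in pancreatic WT tumors (-1.82 ± 0.52, adjusted p = 0.0339). The groups were separate but close at their edges, and 9 of 15 alternatives called Btc, with an adjusted p of up to 0.0971. Areg and Tgfa were each called by 13 of 15, the highest adjusted p being 0.0623 and 0.0554.

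The remaining chromosome 5 ligands overlapped between tissues. Ereg, encoding epiregulin, was at 2.04, 2.13, 0.824 and 10.1 CPM in oral and 16.6, 12.3, 15.5 and 5.96 CPM in pancreatic WT tumors (-1.74 ± 0.72, adjusted p = 0.116). Epgn, encoding epigen, was at 2.52, 1.88, 0.570 and 5.95 CPM against 25.9, 6.40, 19.9 and 4.66 CPM (-2.37 ± 0.77, adjusted p = 0.0555). In both, oral WT tumor 4 lay within the pancreatic range. Without that tumor both were called, at -2.91 (adjusted p = 0.00377) and -3.09 (adjusted p = 0.0184), and DESeq2 called both on all 8 tumors, with adjusted p of 0.0321 and 0.00310.

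Of the receptors, Erbb3 changed most between tissues. It was at 75.9, 87.3, 45.2 and 145 CPM in oral and 319, 252, 211 and 190 CPM in pancreatic WT tumors, with no overlap, and the log2 fold change of -1.46 ± 0.33 (adjusted p = 0.0152) was called in all 15 alternatives. Egfr was at 96, 119, 134 and 149 CPM against 229, 253, 233 and 209 CPM, again without overlap. Its log2 fold change of -0.89 ± 0.15 (adjusted p = 0.00402) passed on the p-value but stayed below the fold threshold. Erbb2 levels overlapped, at 121, 138, 84.6 and 146 CPM against 174, 151, 144 and 133 CPM (-0.30, 95% interval -0.70 to 0.10, adjusted p = 0.258). Errfi1, whose product binds the kinase domain and shuts it down, also overlapped, at 63.6, 78.5, 92.1 and 84.9 CPM against 136, 125, 88.1 and 87.8 CPM (-0.45, interval -0.87 to -0.04, adjusted p = 0.107).

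In bulk RNA, fewer cells of a type and less RNA per cell cannot be told apart. Fibroblast markers were higher in oral WT tumors (8667 to 19009 against 1118 to 2198 CPM, all 6 markers present in both groups). Basal keratinocyte markers were lower (4363 to 8029 against 8636 to 15819 CPM). Squamous differentiation markers were at 921, 2507, 937 and 6186 CPM in oral WT tumors 1 to 4, against 3566 to 7127 CPM in pancreatic WT tumors. The part of these markers in the differences between tissues was not tested. Ratios of 2 genes inside a tumor do not depend on the scaling of the library and were looked at after the levels were seen. Erbb3 counts relative to Erbb2 counts ranged from 0.534 to 0.997 in oral WT and from 1.42 to 1.83 in pancreatic WT tumors, and Hbegf counts relative to Egfr counts from 0.0423 to 0.267 and from 0.460 to 1.02. Hbegf relative to Tgfa ranged from 0.775 to 1.09 in oral and 1.57 to 2.29 in pancreatic WT tumors. The groups were separate for these 3 ratios. Egfr relative to Erbb2 overlapped, from 0.796 to 1.59 in oral and 1.31 to 1.68 in pancreatic WT tumors.

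**Figure D2:**
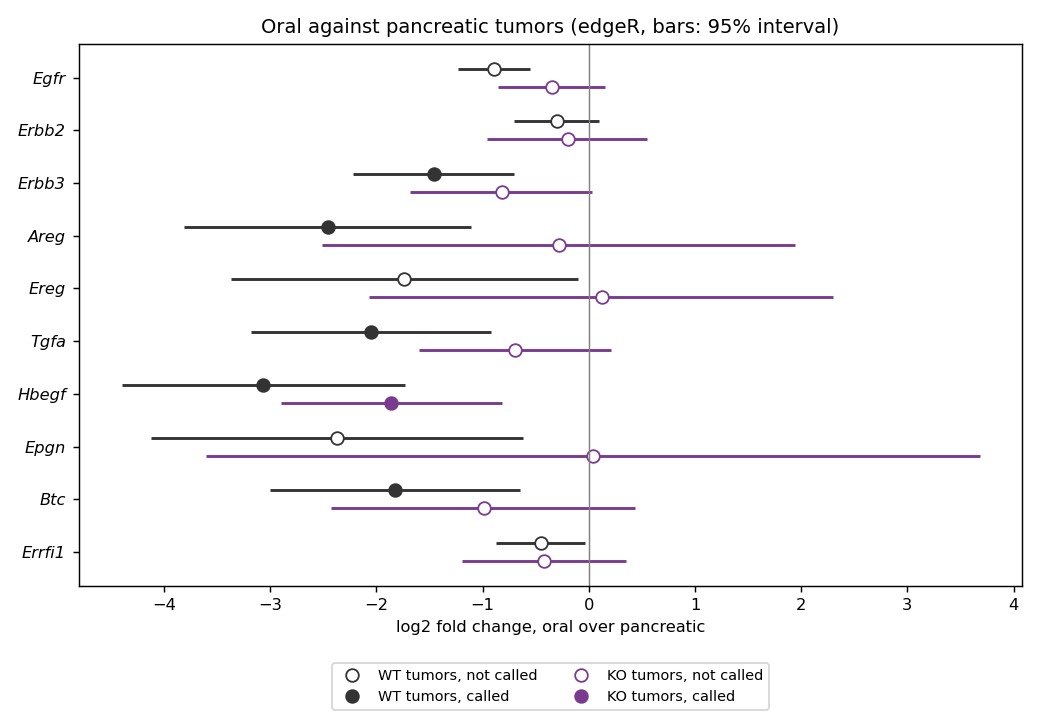
Log2 fold change of oral over pancreatic tumors for each gene, in WT tumors (black) and KO tumors (purple), from edgeR. Bars are 95% intervals and filled points were called (adjusted p under 0.05 and a change above 1). In WT tumors Erbb3, Areg, Tgfa, Hbegf and Btc were called, all lower in oral tumors, and in KO tumors Hbegf alone.

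Among Sox2 KO tumors, the same contrast called Hbegf alone. It was at 38.0 and 19.5 CPM in oral KO tumors 1 and 2 and at 135, 102 and 64.2 CPM in pancreatic KO tumors 1 to 3, without overlap, a log2 fold change of -1.86 ± 0.43 (adjusted p = 0.0245). Of all 24787 genes tested, 10.7% were called lower and 14.6% higher in oral KO tumors, so 1 of 10 members is near the background. The Hbegf call was made by 8 of 12 alternatives and was lost without oral KO tumor 2 (-1.42, adjusted p = 0.0954), without pancreatic KO tumor 1 or 2, and in 1 fit of all 13 tumors (adjusted p = 0.0638). Erbb3 was at 112 and 56.4 CPM in oral and 182, 136 and 112 CPM in pancreatic KO tumors, the lowest pancreatic value barely above the highest oral value, and was not called (-0.82 ± 0.35, adjusted p = 0.117). Without oral KO tumor 1 it was (-1.36, adjusted p = 0.0472).

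For the 8 other members the intervals were wide. The log2 fold change of Areg was -0.28 (95% interval -2.51 to 1.94), of Ereg 0.12 (-2.07 to 2.30), of Epgn 0.04 (-3.60 to 3.68), of Btc -0.99 (-2.43 to 0.44) and of Tgfa -0.69 (-1.60 to 0.21). Those of Egfr (-0.35), Erbb2 (-0.20) and Errfi1 (-0.42) had intervals within -1.19 and 0.55. The comparisons of tissues in WT and in KO tumors use different tumors, and the change between them is the interaction given below, which called no member.

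Sox2 KO tumors of the pancreas had lower estimates than WT tumors for every member, and none was called. The pancreatic WT tumors are those of the tissue comparison above. All 10 fold changes were negative, with a median of -0.70 on the log2 scale against 0.02 over all genes. Of 24653 genes tested, 0.337% were called higher and 0.292% lower, and edgeR and DESeq2 each called 0 of 10 members. At an unadjusted p under 0.05 edgeR had 4 members (Egfr, Erbb2, Erbb3, Tgfa), and 3916 of all genes. The share of all genes called in both directions ranged from 0.0593 to 4.51% over the alternatives, none of which called a member. The 3 receptors were the members whose KO tumors all lay below all WT tumors, as 8.77% of all genes did.

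Egfr was at 229, 253, 233 and 209 CPM in pancreatic WT tumors 1 to 4 and at 169, 166 and 146 CPM in pancreatic KO tumors 1 to 3. The highest KO tumor was below the lowest WT tumor, and the log2 fold change was -0.52 ± 0.11 (adjusted p = 0.0776). Erbb2 was at 174, 151, 144 and 133 CPM in WT and 96.6, 88.2 and 103 CPM in KO tumors, with a log2 fold change of -0.64 ± 0.12 (adjusted p = 0.0687). The spread within the KO group was small for both receptors, the highest over the lowest tumor being 1.15 for Egfr and 1.17 for Erbb2. DESeq2 gave the same sizes of change with smaller adjusted p, 0.00180 for Egfr and 0.000641 for Erbb2, which pass 0.05 but not the fold threshold. Erbb3 was at 319, 252, 211 and 190 CPM in WT and 182, 136 and 112 CPM in KO tumors, with the KO tumors just below, and a log2 fold change of -0.75 ± 0.22 (adjusted p = 0.160, and 0.0242 to 0.429 over 14 alternatives).

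The ligands were more spread among KO tumors. Areg was at 5.08, 9.34 and 1.07 CPM in pancreatic KO tumors 1 to 3, against 6.75 to 17.5 CPM in WT tumors (-1.44 ± 0.67, adjusted p = 0.353). Tgfa was at 62.2, 58.0 and 30.5 CPM (-0.79 ± 0.33, adjusted p = 0.297) and Hbegf at 135, 102 and 64.2 CPM (-0.75 ± 0.41, adjusted p = 0.435). Each of these 3 overlapped the WT range. Btc was at 13.9, 12.2 and 4.45 CPM (-0.93 ± 0.47, adjusted p = 0.389), Ereg at 10.5, 16.2 and 1.98 CPM (-0.40 ± 0.65, adjusted p = 0.816) and Epgn at 13.9, 13.4 and 0.165 CPM (-0.62 ± 1.18, adjusted p = 0.843). KO tumor 3 was the lowest of its group for 6 of 6 ligands, and Epgn in it was 84.7-fold below the highest KO tumor. Without KO tumor 3 the log2 fold change of Ereg was 0.086, with the others still negative, and no member was called. Errfi1 was at 66.6, 117 and 60.4 CPM (-0.42 ± 0.27, adjusted p = 0.511).

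Pancreatic KO tumor 3 was also the tumor with acinar markers (221 CPM over 6 markers, the other 2 KO tumors below 1 CPM) and the lowest squamous differentiation markers (500 CPM, against 1311 and 1932 CPM in KO tumors 2 and 1 and 3566 to 7127 CPM in WT tumors). Among WT tumors, pancreatic WT tumor 4 had the lowest value of its group for 6 of 6 ligands and 3 of 3 receptors and the lowest squamous markers of the WT tumors (3566 CPM). The part of squamous differentiation and acinar tissue in the values of the members was not tested.

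In oral tumors no member differed between KO and WT beyond the spread of the tumors. Of 10 fold changes 8 were positive, with a median of 0.37 on the log2 scale against -0.00 over all genes. Among the 8, Erbb3 and Btc were at 0.02, and each kept its sign in 5 of 13 alternatives. The oral comparison called 8.81% of 22342 genes higher and 2.89% lower in KO tumors, and edgeR and DESeq2 each called 0 of 10 members. At an unadjusted p under 0.05 edgeR also had 0 members, against 7913 of all genes, and every member overlapped between the groups. With 2 KO tumors the estimates are imprecise, with an SE on the log2 scale from 0.21 (Errfi1) to 0.96 (Ereg). The share of all genes called, in both directions together, is itself unstable here, from 0.163% without oral WT tumor 2 to 19.7% in 1 fit of all tumors, and no member was called in either.

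Epgn and Ereg had the largest estimates. Epgn was at 2.98 and 16.5 CPM in oral KO tumors 1 and 2 against 0.570 to 5.95 CPM in WT tumors (1.90, 95% interval -0.26 to 4.06, adjusted p = 0.183). Ereg was at 4.78 and 16.6 CPM against 0.824 to 10.1 CPM (1.57, interval -0.72 to 3.87, adjusted p = 0.281). In both, KO tumor 2 was above all WT tumors and KO tumor 1 within their range. Ereg passed the thresholds only without oral WT tumor 4 (2.76, adjusted p = 0.0362). Areg was at 2.09 and 6.6 CPM (0.85, interval -1.01 to 2.71), Tgfa at 39.9 and 24.5 CPM (0.70, interval -0.79 to 2.19), Hbegf at 38.0 and 19.5 CPM (0.60, interval -1.02 to 2.23) and Btc at 3.23 and 7.24 CPM (0.02, interval -1.50 to 1.54), with adjusted p from 0.453 to 0.987. The KO tumors split by ligand, since KO tumor 1 was the higher for Tgfa and Hbegf and KO tumor 2 for Areg, Ereg, Epgn and Btc.

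The receptors and Errfi1 changed little in the estimate. Egfr was at 105 and 157 CPM (0.14, interval -0.43 to 0.71, adjusted p = 0.706), Erbb2 at 116 and 56.8 CPM (-0.41, interval -1.21 to 0.39, adjusted p = 0.420), Erbb3 at 112 and 56.4 CPM (0.02, interval -1.11 to 1.15, adjusted p = 0.983) and Errfi1 at 68.3 and 58.1 CPM (-0.26, interval -0.76 to 0.24, adjusted p = 0.417). The signs of Egfr, Erbb2 and Areg turned without oral KO tumor 2 (-0.14, 0.041 and -0.17), and those of Erbb3 and Btc depended on the scaling. The 2 KO tumors held more muscle transcripts (2781 and 5087 CPM) than WT tumors 1 to 3 (5.02 to 7.31 CPM), and KO tumor 1 the large share of Rn7s RNA. The part of either in these values was not tested.

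**Figure D3:**
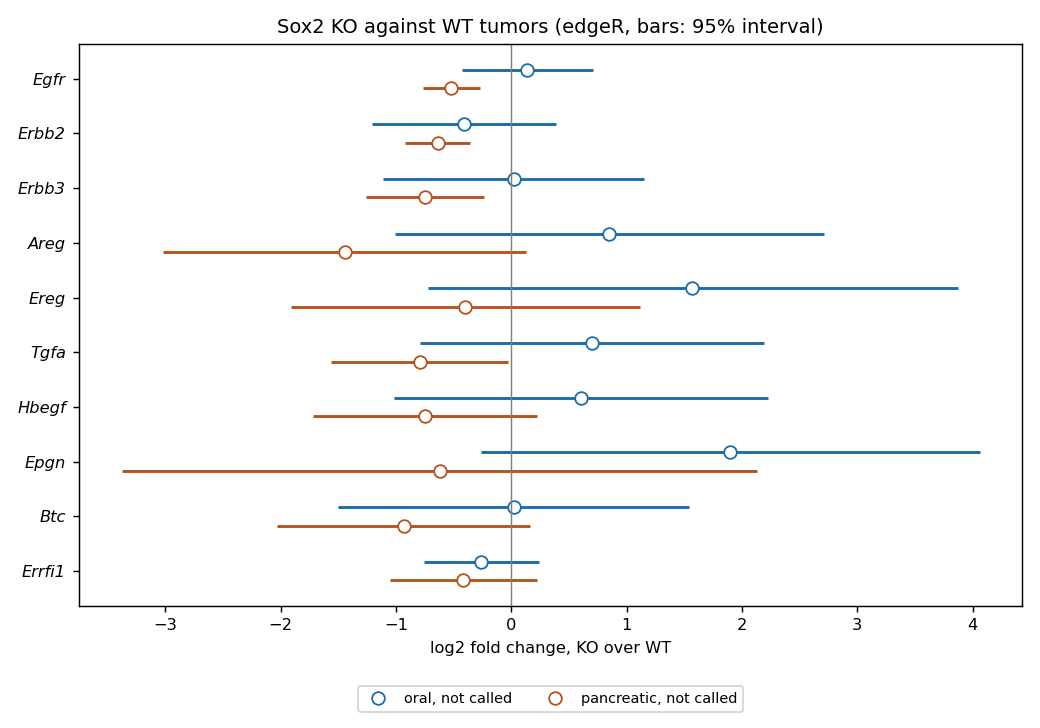
Log2 fold change of KO over WT tumors for each gene in oral (blue) and pancreatic (brown) tumors, from edgeR, with 95% intervals. No gene was called in either tissue. All 10 pancreatic estimates lie below 0, those of Egfr, Erbb2, Erbb3 and Tgfa with an interval below 0, whereas every oral interval includes 0.

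Whether the effect of Sox2 loss differed between tissues was tested as the interaction, the pancreatic KO effect minus the oral KO effect, in 1 fit of all 13 tumors. Of 25836 genes, 12.3% were called in either direction. edgeR and DESeq2 each called 0 of 10 members, and 1 (Egfr) had an unadjusted p under 0.05. All 10 estimates were negative, with a median of -1.07 on the log2 scale against 0.03 over all genes. Epgn had -2.47 ± 1.69 (adjusted p = 0.322), Areg -2.24 ± 1.12 (adjusted p = 0.181), Ereg -1.91 ± 1.26 (adjusted p = 0.304) and Tgfa -1.41 ± 0.74 (adjusted p = 0.202). For the receptors the estimates were -0.60 ± 0.26 (Egfr, adjusted p = 0.121), -0.68 ± 0.54 (Erbb3, adjusted p = 0.390) and -0.15 ± 0.35 (Erbb2, adjusted p = 0.792). Tgfa was called without oral WT tumor 4 (-2.0, adjusted p = 0.0375), the only such call in 19 alternatives.

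The sum of the 6 ligands gives a measure of how much EGFR ligand transcript a tumor held. Per length it was 12.2, 10.3, 3.62 and 26.4 CPM per kb in oral WT tumors 1 to 4, 19.3 and 28 in oral KO tumors 1 and 2, 99.7, 94.6, 66 and 41 in pancreatic WT tumors 1 to 4, and 55, 51.8 and 20.4 in pancreatic KO tumors 1 to 3. All pancreatic WT tumors were above all oral tumors, and pancreatic KO tumor 3 fell within the oral range. The 3 receptors summed to 35.6 to 65.3 CPM per kb in oral WT, 34.1 and 50.1 in oral KO, 75.7 to 107 in pancreatic WT and 51.3 to 63.7 in pancreatic KO tumors, so that receptors varied less between tumors than ligands did.

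The composition of the sum differed as well. Hbegf made up 33.8 to 56.4% of the ligand sum in pancreatic WT and 40.8 to 65% in pancreatic KO tumors, and 30.5 to 33.7% in oral WT tumors, where Tgfa followed with 23 to 31.2%. Oral KO tumor 2 had the unusual makeup of 32.6% Epgn, 19.4% Areg, 14.4% Ereg and 14.4% Hbegf, whereas oral KO tumor 1 had 40.9% Hbegf and 31.9% Tgfa. Pancreatic KO tumor 3 combined the highest Hbegf share (65%) with 0.446% Epgn.

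**Figure D4:**
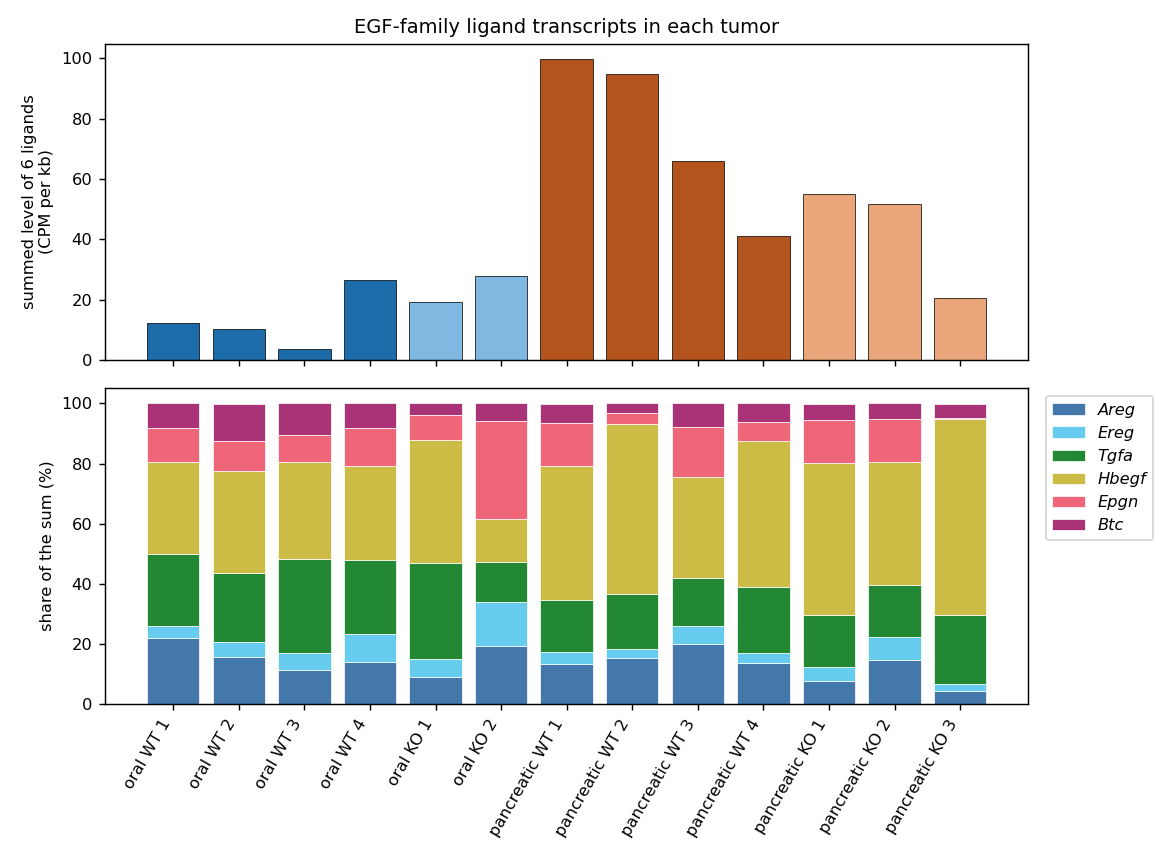
Top, summed level of the 6 ligands (CPM per kb of exon) in each tumor. Bottom, share of each ligand in that sum (%). Bars are single tumors, and the sum runs from 3.62 in oral WT tumor 3 to 99.7 in pancreatic WT tumor 1. Hbegf is the largest share in all pancreatic tumors and in every oral tumor except oral KO tumor 2.

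Among the oral WT tumors the ligands had the same highest and the same lowest tumor. Oral WT tumor 4 was highest for 6 of 6 ligands and 3 of 3 receptors and oral WT tumor 3 lowest for 6 of 6 ligands. The range from lowest to highest tumor was 5.66-fold (Btc) to 12.2-fold (Ereg) for the ligands. It was 3.22-fold for Erbb3, 1.72-fold for Erbb2, 1.56-fold for Egfr and 1.45-fold for Errfi1. Oral WT tumor 4 also had the highest squamous differentiation markers of its group (6186 CPM, against 921 to 2507 CPM) and muscle markers of 480 CPM, and their part in the ligand values was not tested.

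The genes with the profile most like Areg over the 13 tumors, by the root mean square difference of centred log2 CPM among 13300 protein-coding genes with at least 10 counts in every tumor, were Egln3 (0.57), Gjb6 (0.57) and its neighbour Ereg (0.65), on a profile whose own root mean square was 1.48. Egln3 encodes an oxygen-sensing prolyl hydroxylase and Gjb6 a connexin of keratinocytes. Btc was at rank 5 (0.66), Tgfa at rank 22 (0.79) and Epgn at rank 197 (1.02), although Epgn lies in the same gene cluster. The profile of Egfr, with a root mean square of 0.43, was closest to Ppp1cb (0.14), a phosphatase subunit, Fam126b (0.20) and Ndfip2 (0.21), and no member was among its nearest genes, the closest being Errfi1 at rank 733 (0.35). The 13 tumors share 2 tissues and unequal depths, and the ranks are a description.

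Other members of the family were mostly scarce. Nrg1, encoding a neuregulin that binds ERBB3, was more abundant, at 21.9 ± 31.2 CPM (SD, n = 4) in oral WT and 213 ± 74.5 CPM (n = 4) in pancreatic WT tumors. It was called lower in oral WT tumors (-3.28 ± 0.93, adjusted p = 0.0343), as was Erbb3. Nrg1 was likewise lower in oral KO (28.9 ± 28.1 CPM, n = 2) than in pancreatic KO tumors (361 ± 189 CPM, n = 3, -3.70 ± 0.88, adjusted p = 0.0274). These calls were made by 8 of 15 and 8 of 12 alternatives, beside 7.24% and 10.7% of all genes called lower. Between pancreatic KO and WT tumors the estimate of Nrg1 was positive (0.77 ± 0.39, edgeR adjusted p = 0.396) and that of Erbb3 negative (-0.75 ± 0.22). Neither was called there. Of the 5 tested genes, 1 (Egf) was called higher in oral KO than in oral WT tumors, beside 8.81% of all genes. Egf was at 7.69 ± 0.713 against 2.77 ± 0.786 CPM (1.56 ± 0.35, adjusted p = 0.0336). This call held in 6 of 13 alternatives and was lost without either oral KO tumor and with protein-coding genes alone. Egf was also called higher in oral than in pancreatic KO tumors (2.41 ± 0.32, adjusted p = 0.00787, in 12 of 12 alternatives), with 1.39 ± 0.101 CPM in the latter, and in the interaction (-1.59 ± 0.43, adjusted p = 0.0322, in 9 of 19). Of all genes, 14.6% were called higher between KO tissues and 12.3% were called in the interaction. Erbb4 stayed at or below 3.08 CPM in every tumor, Nrg2 at or below 3.07 CPM and Nrg4 at or below 1.65 CPM, and Nrg3, at 0.513 CPM or less, was not tested.

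Of 5 genes whose proteins release the ligands, 1 was called lower in oral tumors in each tissue comparison. The share of all genes called lower was 7.24% in WT and 10.7% in KO tumors. At an unadjusted p under 0.05 edgeR had 4 of 5 in each comparison, with list medians of -0.84 and -0.82. That p was passed by 8527 of 23164 genes in WT and 11577 of 24787 in KO tumors. Adam10, the protease of betacellulin and Egf shedding, was called lower in oral WT (201 ± 46.8 against 467 ± 91.5 CPM, -1.22 ± 0.21, adjusted p = 0.00425) and oral KO tumors (146 ± 68.7 against 449 ± 15.7 CPM, -1.68 ± 0.31, adjusted p = 0.0142), under every alternative. Adam17, which sheds most of the other ligands, and its partners Rhbdf1, Rhbdf2 and Frmd8 were not called in any of the 5 main comparisons. Without oral WT tumor 4, 2 of the 5 genes were called lower in oral WT tumors.

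Of 16 feedback inhibitors of the pathway, 3 were called higher and 4 lower in oral than in pancreatic WT tumors, with a list median of 0.02, beside 9.30% of all genes called higher and 7.24% lower. Dusp5, a nuclear ERK phosphatase, was at 11.4 ± 8.15 against 108 ± 44.3 CPM (-3.24 ± 0.52, adjusted p = 0.00359), and Cblc, an E3 ligase of the CBL family, was also lower (-1.87 ± 0.20, adjusted p = 0.000799). Lrig3, of the LRIG family of receptor regulators, was higher (1.75 ± 0.20, adjusted p = 0.00104), as was Spred3 (1.13 ± 0.24, adjusted p = 0.00980). In KO tumors 2 of 16 were called lower in oral tumors, near the 10.7% of all genes, Spry2 (-1.47 ± 0.21, adjusted p = 0.00878) and Lrig1 (-1.07 ± 0.32, adjusted p = 0.0474), and none higher. Lrig1, which marks receptors for degradation, was the 1 gene of this list called in oral KO against WT tumors (9.75 ± 3.20 against 23.8 ± 3.99 CPM, -1.21 ± 0.30, adjusted p = 0.0414), in 5 of 13 alternatives. Of all genes, 2.89% were called lower and 8.81% higher in that comparison.

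Of 21 genes that relay the signal, 2 were called lower in oral WT tumors, near the 7.24% of all genes, the kinases Mapk3 (-1.43 ± 0.16, adjusted p = 0.000915) and Map2k1 (-1.18 ± 0.15, adjusted p = 0.00129). In oral KO tumors 6 of 21 were called lower than in pancreatic KO tumors, beside 10.7% of all genes. Among them were the adaptor Grb2 (-1.50 ± 0.20, adjusted p = 0.00822), Mapk3 and Akt1 (-1.19 ± 0.18, adjusted p = 0.00980). With protein-coding genes alone the 6 became 2, without Akt1, beside 1093 of 16886 genes. Grb2 was also called lower in oral KO than WT tumors (31.4 ± 7.38 against 83.4 ± 15.4 CPM, -1.34 ± 0.25, adjusted p = 0.0243), a call made by 7 of 13 alternatives and lost without either oral KO tumor. Grb2 was the 1 of 21 called in that comparison, beside 2.89% of all genes called lower. In the interaction 3 of 21 were called, near the 12.3% of all genes called in either direction. Among them were Grb2 (1.54 ± 0.26, adjusted p = 0.00794) and Akt1 (1.32 ± 0.27, adjusted p = 0.0124), in 19 of 19 alternatives each.

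Early response targets, the genes transcribed soon after ERK is active, were the list with most calls between tissues. Of 15, 7 were called lower and 1 higher in oral WT tumors (median -0.78), and 11 lower and 1 higher in oral KO tumors (median -1.39). Of all genes, 7.24% were called lower and 9.30% higher in the WT comparison, and 10.7% and 14.6% in the KO comparison. The list was chosen with earlier results of these data known. The 11 became 8 with protein-coding genes alone (beside 1093 of 16886 genes), 5 without pancreatic KO tumor 1 (1642 of 23709) and 6 without pancreatic KO tumor 2 (1716 of 24100). DESeq2 gave 12 (3280 of 24787). Phlda1 was at 15.6 ± 7.27 against 164 ± 63.1 CPM in WT tumors (-3.39 ± 0.47, adjusted p = 0.00210), Junb at 81.9 ± 23.8 against 260 ± 56.5 CPM (-1.66 ± 0.23, adjusted p = 0.00181) and Fos at 18.7 ± 9.31 against 84.9 ± 48.4 CPM (-2.18 ± 0.46, adjusted p = 0.0113). Egr3 went the other way, at 162 ± 49.3 against 16.5 ± 16.3 CPM (3.30 ± 0.74, adjusted p = 0.0138). In KO tumors Egr1 was at 79.8 ± 8.01 against 527 ± 148 CPM (-2.78 ± 0.29, adjusted p = 0.00592), with Egr2 (-3.38 ± 0.31) and Jun (-2.55 ± 0.29) also lower. Receptor and ERK phosphorylation were not measured here.

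Of 15 early targets, 1 was called higher and 1 lower in oral KO than in oral WT tumors, beside 8.81% and 2.89% of all genes. Fosb was higher (13.5 ± 7.65 against 3.53 ± 0.861 CPM, 2.01 ± 0.42, adjusted p = 0.0294) and Ccnd1, cyclin D1, lower (53.1 ± 8.53 against 149 ± 55.2 CPM, -1.42 ± 0.38, adjusted p = 0.0493), each in 6 of 13 alternatives. Between pancreatic KO and WT tumors no gene of the 5 lists was called by edgeR. At an unadjusted p under 0.05 there were 6 of 16 feedback inhibitors, 1 of 21 relay genes, 5 of 15 early targets and 0 of the other 10, beside 3916 of all 24653 genes. DESeq2, and edgeR with tumor number as a block, each called 1 feedback inhibitor lower. The smallest adjusted p was that of the receptor regulator Lrig2 (28.1 ± 1.08 against 40.2 ± 2.50 CPM, -0.50 ± 0.11, adjusted p = 0.0818).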

How the data were processed

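RNA of 13 mouse tumors was sequenced after ribosomal RNA depletion with a stranded total RNA kit. The authors trimmed reads with Trim Galore 0.6.10, checked them with FastQC 0.12.1, quantified them with Kallisto 0.50.0 on GENCODE M23 transcripts (GRCm38) and summed them per gene with tximport. They deposited estimated counts without scaling for library size, in 1 table of 56085 rows, 55332 with values, 27.3% of which are not whole numbers. Totals per tumor give the depth, which limits genes of few counts.

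Symbols, positions and exon lengths were taken from GENCODE M21 (55141 genes found). Estimated counts were rounded and fitted with edgeR 4.0.16 in R 4.3.3 (TMM, robust quasi-likelihood, Benjamini-Hochberg over all genes tested), keeping genes with 10 counts in at least 2 tumors of the fit. Called genes had a log2 fold change beyond 1 in either direction with an adjusted p below 0.05. SE is the fold change over the root of the F statistic, and 95% intervals use the same test. CPM used TMM factors over all 13 tumors, and log2 CPM for profile likeness a prior count of 2. The method was tested on simulated counts with planted changes, which did not model the differences in tissue content between these tumors.

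The members and gene lists were chosen with earlier results of these data known. Named genes were the 10 members, in each other list up to 4 called genes of smallest adjusted p per comparison (or the 1 smallest where none was called), and the 3 most similar genes for Egfr and Areg. Names given at the level of whole lists, such as Erbb4, are outside this rule. Alternatives were DESeq2 1.42.0 with and without apeglm 1.24.0, its size factors in edgeR, no count filter, protein-coding genes alone, tumor number as a block, 1 fit of all tumors, the p threshold alone, and leaving out each tumor. Results for 1 gene of the relay list are not reported here.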

Additional observations from a re-analysis of the deposited data

Results flagged for a closer look

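The level of each member was examined in the 2 groups of 4 tumors for a tumor far from the other 3, in 20 groups in all. The measure is the gap to the nearest other tumor as a share of the whole range, held against Dixon's critical value, which chance alone passes in about 1 of 20 groups. Ereg in oral WT tumor 4 was the highest of its group with a gap of 0.859 of the range (10.1 CPM against 0.824 to 2.13 CPM). Areg in pancreatic WT tumor 4 was the lowest of its group with a gap of 0.869 (6.75 CPM against 16.1 to 17.5 CPM). The same tumors were the extremes for all 6 ligands in their groups.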

How the results depend on the processing

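No member changed the sign of its fold change between oral and pancreatic WT tumors under 15 alternatives, and Erbb3 and Hbegf were called there in all of them. The 5 calls became 3 without a count filter, 3 with tumor number as a replicate block, and 2 to 7 with single tumors left out. The 1 call between KO tissues became 0 in 1 fit of all 13 tumors, 2 with the replicate block, and 0 to 2 with single tumors left out. Leaving out single tumors gave 0 to 1 member called higher in oral KO against WT and 0 to 1 called lower in the interaction, the 1 being without oral WT tumor 4 both times. An oral KO tumor left alone was assumed to vary like the other group.

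Signs turned mostly where the estimate was near 0. In oral KO against WT, Erbb3 was -0.029 with DESeq2 size factors in edgeR, -0.028 with DESeq2, -0.016 with apeglm, -0.087 without a count filter and -0.075 in 1 fit, and Btc was -0.008, -0.0085, -0.0031, -0.067 and -0.049 in the same order. With single tumors left out, Egfr ranged from -0.14 to 0.39, Erbb2 from -1.05 to 0.041, Erbb3 from -0.59 to 0.45, Areg from -0.17 to 1.43 and Btc from -0.63 to 0.48. In pancreatic KO against WT, Ereg ranged from -1.01 to 0.086. Between KO tissues, Erbb2 was 0.07 with protein-coding genes alone, Epgn -0.019 without a filter, and Ereg and Epgn -0.58 and -0.96 with the replicate block. There Erbb2 ranged from -0.77 to 0.25, Areg from -1.32 to 0.47, Ereg from -1.02 to 0.79 and Epgn from -1.64 to 0.84 with tumors left out. In the interaction, Errfi1 was 0.039 without a filter and ranged from -0.45 to 0.083, and Erbb2 from -0.58 to 0.5. The cause of these changes was not tested.

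Over all genes the number called was 2614 in oral KO against WT (27 to 5082 over the alternatives), 155 in pancreatic KO against WT (10 to 1111), 3832 and 6252 between WT and KO tissues (2821 to 4483 and 2869 to 7774), and 3168 in the interaction (791 to 4737). Tumor numbers did not pair the samples, with correlations of deviations from -0.08 to 0.317 and 2 of 6 tumors closest to their own number in the pancreas, and 0 of 8 between WT tissues. The replicate block called 65, 590, 2989, 3697 and 1460 genes in these comparisons. Of the group levels per length, 11 of 80 moved by more than 1 SD under either alternative.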
